A study of Saccharomyces cerevisiae with 23 samples.

Results

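Among the 117 chromosome I genes in a count table of 6596 budding yeast genes, 35 formed a set whose RNA level differed little between a haploid control and a euploid population obtained by tetrad dissection. The set was chosen on measured values. Levels (CPM, the share of a column's counts that fell on a gene, scaled up) were averaged, and a gene was kept where its mean over all 23 libraries was 5 CPM or more and the log2 ratio of the euploid tetrad mean to the haploid mean, after adding 0.5 CPM to each, was under 1 in either direction. Of the 117 genes, 39 were under 5 CPM and 43 passed that limit but lay at or beyond the ratio limit, 28 of them with the euploid population above the haploid and 15 below. The ratio, and the mean level, are therefore descriptions of the choice. All 35 genes passed the filter on low counts and none was listed at 0 in any library. On the other 15 chromosomes, 2391 genes met the same rule and serve as the comparison.

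The study compared karyotypically mixed aneuploid yeast populations with euploid ones. All libraries were labelled as the laboratory strain BY4741, grown in YPD and refreshed for 4 hours at 23 degrees in deep-well plates, with no treatment. The haploid control gave 2 libraries, and 7 populations gave 3 each. Tetrad dissection was the source of a euploid tetrad population and of 2 aneuploid ones, T1 and T2. A second route, called a-selection in the labels, was the source of a euploid a-selection population and of 3 aneuploid ones, A1 to A3. The labels do not say which chromosomes were gained or lost, in what share of cells, or whether the replicates came from separate cultures, so the p-values measure the spread between these libraries. In RNA from a whole population, a change carried by few cells and a smaller change in every cell cannot be told apart.

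Chromosome I is the smallest yeast chromosome. Its ends carry subtelomeric repeated families, and most of its single-copy genes lie between them on both sides of the centromere. A cell that gains or loses a chromosome carries more or fewer copies of every gene on it, and the RNA of many of those genes is known to follow the copy number, which is why the genes of 1 chromosome are examined as a block. Levels of many yeast genes also follow growth rate and nutrient state, and the rule leaves out those for which the haploid and euploid tetrad libraries differed most.

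The 35 genes spanned positions 37464 to 186545 of the R64 sequence of chromosome I, 28 on the left arm and 7 on the right arm. The centromere that divides them is printed because every position below is given as a distance from it. It lay at chrI:151465-151582 on the plus strand of R64 in RefSeq and was 118 bases long. Capitals mark CDEI at the start, which binds Cbf1, and CDEIII at the end, which binds the CBF3 complex. The lower-case stretch between them is CDEII, 83 bases of which 96.4% were A or T.

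CEN1: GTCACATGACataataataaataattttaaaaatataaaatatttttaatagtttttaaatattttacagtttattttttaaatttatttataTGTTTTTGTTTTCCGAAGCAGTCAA

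The 2 genes that flank the centromere most closely, TFC3 on the left and NUP60 on the right, are both members. Coding lengths in the set ran from 225 to 4416 bases with a median of 1509, and mean levels, not divided by length, from 7.74 CPM (YAL037W) to 3538 CPM (SSA1) with a median of 70.3 CPM, beside 65.6 CPM for the same-rule genes of the other chromosomes. TFC3 was the member with 2 coding exons, and the others had 1. By function the set held 8 genes of the cell cycle, spindle and polarity, 8 of transcription, chromatin and RNA processing, 7 of the secretory pathway and nuclear envelope, 3 of mitochondria, 2 each of DNA replication and repair, metabolism and transport, and repeated families, and the chaperone gene SSA1. YAL037W and ATS1 were in no list. No gene from the lists of translation factors or of signalling kinases and inhibitors met the rule.

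The name given to the set, insensitive to growth state, was checked in a comparison the rule did not use, although it shares the haploid libraries with it. In the edgeR fit described below, the euploid a-selection population differed from the haploid control in 29 of the 35 genes, with 9 higher and 20 lower, where 45.0% of all 6111 tested genes were higher and 44.4% lower. Changes ran from -1.24 (CLN3 and MYO4) to 0.87 (KIN3) on the log2 scale. The share of members called was no larger than that of all tested genes. Quartiles of the change were -0.53 and 0.24 over the members and -1.09 and 1.00 over all tested genes. They were -0.54 and 0.31 over the same-rule genes elsewhere. The directions depended on the scaling. RFA1, the member at the median change of -0.15 in the fit, was at 0.28 by the log2 CPM ratio. By the CPM ratio of the rule, 4 members (PRP45, DEP1, TFC3 and KIN3) passed the 2-fold limit in that population. After the TMM scaling of the fit, 2 members, MYO4 and NUP60, also passed it in the euploid tetrad population itself. The set is therefore better described as genes within about 2-fold between the haploid and the euploid tetrad population than as genes that do not respond to growth state. Just inside the limit lay NUP60 with a log2 ratio of -0.98, MYO4 with -0.96 and TFC3 with 0.94, and just outside lay GEM1 with 1.00, TPD3 with 1.15 and CDC19 with -1.16.

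Each aneuploid population was compared with the euploid population of its own route. Counts were scaled by TMM and tested with edgeR's quasi-likelihood test over all 6111 genes that passed the filter, and a gene was called where its Benjamini-Hochberg adjusted p was under 0.05. Levels are normalised CPM on that scale, and changes are log2 fold changes with standard errors. The standard error of each change was worked back from the change and its F statistic, as the change divided by the square root of F. To set the chromosome I genes against the rest of the genome, the median change of the 2391 same-rule genes elsewhere was subtracted from the median of the 35. That difference is called the relative shift. It is a description and has no p-value.

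The a-selection populations fell on both sides of their euploid control. In A1, 22 of the 35 genes were higher and 2 lower, against 36.6% higher and 35.7% lower among all tested genes. In A2, 25 were higher and 0 lower, with 36.4% and 35.9% in the background, and neither an unadjusted p under 0.05 nor DESeq2 found a member lower (0 by each). In A3 the balance turned, with 10 higher and 17 lower beside 40.2% and 39.7%. The median change of the members was 0.14 in A1, 0.22 in A2 and -0.11 in A3, while the medians of the same-rule genes elsewhere were -0.02, -0.02 and 0.01. The relative shift was 0.16 for A1, 0.24 for A2 and -0.12 for A3, which as linear ratios are 1.12, 1.18 and 0.919.

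The shift was seen library by library. Set against the mean of the euploid a-selection libraries, the 3 A1 libraries had relative shifts of 0.174, 0.208 and 0.175. The A2 libraries had 0.258, 0.248 and 0.241, and the A3 libraries -0.152, -0.117 and -0.121. The euploid a-selection libraries themselves stood between -0.0046 and 0.0050. No library of A1, A2, A3 or the euploid a-selection population overlapped with another of these groups. The euploid libraries enter the mean they are set against, which holds them close to it. The aneuploid libraries all share that mean, so an error in it would move them together. The number of the 35 genes above the euploid mean was 28, 29 and 28 in the A1 libraries, 33, 32 and 31 in A2 and 13, 15 and 13 in A3.

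**Figure D1:**
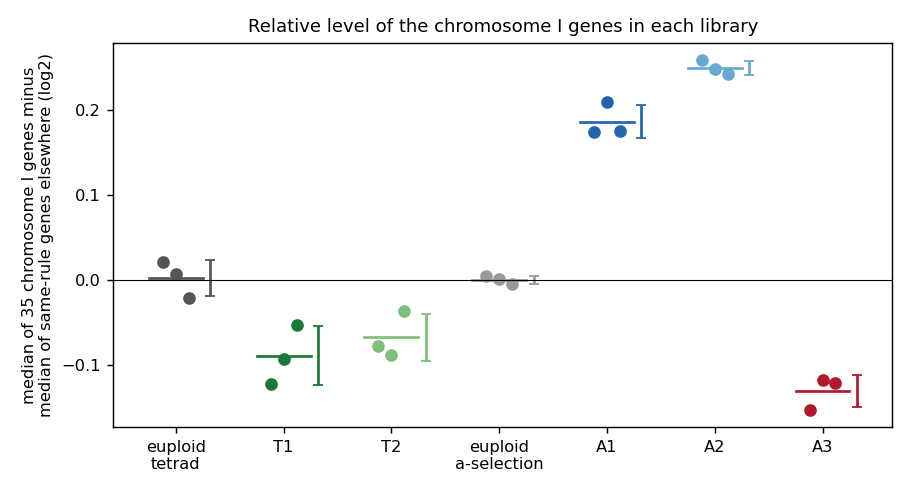
The relative level of the 35 chromosome I genes in each library, as the median of the genes' log2 values against the mean of the euploid libraries of the same route, minus the same median over the 2391 genes elsewhere that met the rule. Points are libraries, horizontal lines are group means and vertical bars are SD (n = 3). Euploid libraries are set against their own mean, so their points are centred by construction. The A2 points lie from 0.241 to 0.258, the A3 points from -0.152 to -0.117, and the T1 and T2 points from -0.121 to -0.036.

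Chromosome I had the lowest median of the 16 chromosomes when A3 was set against A2. In that direct contrast, added after the test among the 3 populations had been seen, 33 of the 35 genes were lower and 1 was higher, where 30.2% of all tested genes were lower and 34.2% higher. The median change of the members was -0.33. Among the same-rule genes of the other 15 chromosomes the chromosome medians of this contrast lay between -0.02 (X) and 0.08 (XIII). The gene that was higher was GCV3, and SSA1 was not called. The chromosome I genes that the rule left out had a median of -0.40 over 61 tested genes, 29 of them lower and 11 higher. Across A1, A2 and A3 together, the F test called 34 of the 35 genes, with SSA1 the exception, beside 73.8% of all tested genes.

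Placed among the 16 chromosomes by the median of their same-rule genes, chromosome I was at rank 4 from the top in A1, rank 3 in A2 and rank 15 in A3. Chromosomes VIII and XI stood above it in all 3 populations. Chromosome VIII had medians of 0.36, 0.45 and 0.45 in A1, A2 and A3 and chromosome XI of 0.18, 0.25 and 0.25, so both were near the same value in A2 and A3, where chromosome I went from 0.22 to -0.11.

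**Figure D2:**
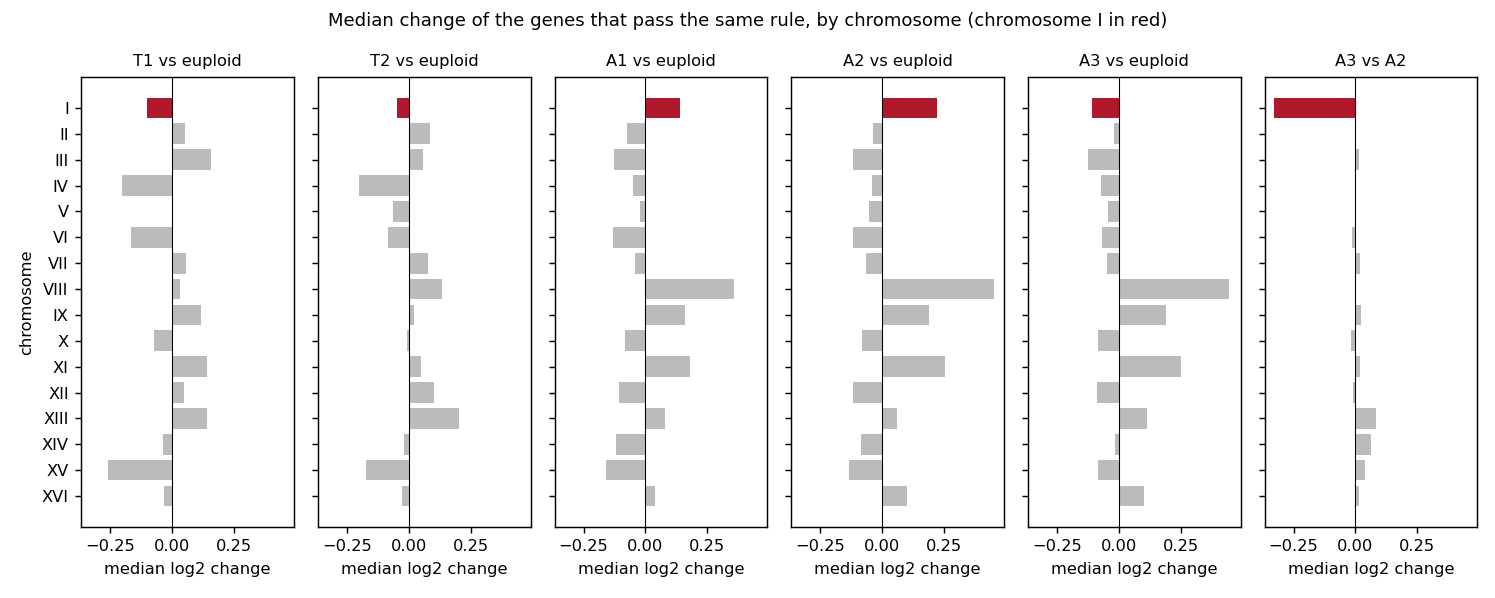
Median log2 change of the genes that met the rule on each of the 16 chromosomes, in each aneuploid population against its own-route euploid population and, in the last panel, in A3 against A2. Chromosome I is red. In the last panel its bar reaches -0.33, and those of the other chromosomes lie between -0.02 and 0.08.

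The genes of the cell cycle, spindle and polarity were mostly higher in the a-selection aneuploids. Of their 8 members, 7 were higher in A1, all 8 in A2 and 5 in A3, with medians of 0.36, 0.44 and 0.17. The shares of all tested genes that were higher were 36.6%, 36.4% and 40.2%. LTE1, which encodes a regulator of mitotic exit, was at 18.5, 17.1 and 18.8 CPM in the euploid a-selection libraries. It was at 28.5, 29.8 and 26.4 CPM in A1, 32.5, 34.4 and 33.4 in A2 and 24.0, 21.5 and 23.4 in A3. All 9 aneuploid libraries were above the 3 euploid ones, and the 3 aneuploid populations did not overlap. Its changes were 0.64 ± 0.06, 0.88 ± 0.06 and 0.34 ± 0.06 (SE, adjusted p = 3.09e-09, 7.68e-12 and 3.08e-05, edgeR), and A3 was lower than A2 (-0.54 ± 0.06). Separation from the euploid libraries, given here for single genes, was common in the genome. In A1, A2 and A3, 37.7%, 37.6% and 40.9% of all tested genes lay wholly above those libraries, and 36.3%, 37.3% and 40.5% wholly below. Separation between the aneuploid populations was not counted over all genes.

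MTW1 encodes a kinetochore subunit of the complex that joins the centromere to spindle microtubules. Its level was 12.3, 12.2 and 12.2 CPM in the euploid a-selection libraries, 21.4, 20.6 and 20.3 in A1, 21.9, 20.1 and 21.3 in A2 and 17.3, 16.9 and 16.0 in A3. The A1 and A2 libraries overlapped with each other and stood above A3, which stood above the euploid libraries. The changes of MTW1 were 0.76 ± 0.07, 0.78 ± 0.07 and 0.45 ± 0.07 (adjusted p = 7.91e-10, 4.73e-10 and 3.52e-06, edgeR). CLN3, the G1 cyclin that promotes entry into the cell cycle, was at 65.7, 66.6 and 66.8 CPM in the euploid a-selection libraries, 115, 109 and 98.0 in A1, 107, 110 and 106 in A2 and 94.7, 87.9 and 94.0 in A3. Every aneuploid library of the route was above every euploid one, and CLN3 changed by 0.69 ± 0.04, 0.70 ± 0.04 and 0.48 ± 0.04.

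SPC72, which anchors microtubule nucleation at the spindle pole body, was higher in A1 by 0.44 ± 0.10 and in A2 by 0.50 ± 0.10, and its A3 change of 0.13 ± 0.10 was not called. MYO4, a type V myosin that carries mRNA into the bud, was higher by 0.27 ± 0.04, 0.38 ± 0.04 and 0.21 ± 0.05 in A1, A2 and A3. KIN3, a NIMA-related kinase, was at 60.9, 61.4 and 59.4 CPM in the euploid a-selection libraries, 71.4, 73.1 and 75.2 in A1, 72.3, 77.2 and 74.9 in A2 and 59.0, 59.3 and 60.4 in A3. Its A3 level overlapped with the euploid libraries, with a change of -0.02 ± 0.03, and its level in both other populations did not. CDC24, the exchange factor that activates the polarity GTPase Cdc42, was higher in A2 by 0.26 ± 0.05 and lower in A3 (-0.17 ± 0.05). BUD14, a regulator of the formin Bnr1 and of polarised growth, had changes of 0.11 ± 0.04, 0.22 ± 0.04 and 0.11 ± 0.04. The 3 listed genes of chromosome I that were tested but lay outside the rule behaved differently in their counts, with 1 higher and 1 lower in A2 and all 3 lower in A3.

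Genes of transcription, chromatin and RNA processing were mostly lower in A3. There 7 of the 8 were lower, with a median of -0.37, whereas in A2 6 of them were higher, with a median of 0.11. Over all tested genes, 39.7% were lower in A3 and 36.4% higher in A2. TFC3 encodes the largest subunit of TFIIIC, a transcription factor of the RNA polymerase III system. It was at 133, 129 and 136 CPM in the euploid a-selection libraries, 156, 160 and 154 in A1, 157, 159 and 155 in A2 and 90.3, 103 and 96.6 in A3. The A1 and A2 libraries were all above the euploid ones and the A3 libraries all below. TFC3 changed by 0.24 ± 0.04 in both A1 and A2 and by -0.46 ± 0.04 in A3, and A3 differed from A2 by -0.70 ± 0.04 (adjusted p = 1.63e-13, edgeR). It had the smallest p of the members in the test among the 3 populations (adjusted p = 6.56e-14, edgeR F test).

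DEP1, a subunit of the Rpd3L histone deacetylase complex, followed with an adjusted p of 1.88e-13 in the edgeR F test. Its level was 166, 162 and 157 CPM in the euploid a-selection libraries, 180, 176 and 181 in A1, 177, 174 and 173 in A2 and 112, 116 and 123 in A3. The A3 libraries lay below all the others of the route, and the change there was -0.46 ± 0.03, beside 0.15 ± 0.03 in A1 and 0.11 ± 0.03 in A2. PRP45, a splicing factor, and SWD1, a subunit of the COMPASS histone methyltransferase, gave the same order of calls, higher in A1 and A2 and lower in A3, where they changed by -0.24 ± 0.04 and -0.15 ± 0.04.

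CCR4, the catalytic deadenylase of the Ccr4-Not complex, was not called in A1 (-0.05 ± 0.03) or A2 (0.01 ± 0.03). It was lower in A3 (-0.45 ± 0.04), with 108, 107 and 110 CPM there beside 152, 147 and 145 in the euploid libraries. OAF1, a transcription factor of fatty acid use, was higher in A2 by 0.12 ± 0.03 and lower in A3 (-0.43 ± 0.03). PTA1, a subunit of the cleavage and polyadenylation factor, was called in A3 alone among the 5 populations, by -0.31 ± 0.03. SWC3, a subunit of the SWR1 complex, was the exception to the drop in A3, at -0.00 ± 0.05. It was 1 of the 2 members lower in A1 (-0.14 ± 0.05), and that call was lost when the euploid library 1 (adjusted p = 0.151) or the A1 library 2 (adjusted p = 0.0763) was left out of the edgeR fit. Outside the rule, all 3 of the tested chromosome I genes on this list were higher in A1, A2 and A3, with a median of 1.10 in A3.

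All 7 members of the secretory pathway and nuclear envelope were higher in A2, with a median of 0.28, and all 7 were lower in A3 than in A2. Among all 35 members, 25 were higher in A2 and 33 were lower in A3 than in A2. Over all tested genes the shares were 36.4% and 30.2%. NUP60, a nuclear basket nucleoporin, was at 71.2, 71.6 and 74.1 CPM in the euploid a-selection libraries, 88.5, 90.8 and 89.4 in A1, 94.8, 94.3 and 93.7 in A2 and 77.6, 77.9 and 82.1 in A3. The 4 groups did not overlap, and NUP60 changed by 0.31 ± 0.03, 0.38 ± 0.03 and 0.13 ± 0.03. FLC2, a membrane protein linked to import of FAD into the endoplasmic reticulum, changed by 0.16 ± 0.04, 0.36 ± 0.04 and 0.10 ± 0.04. The A3 call of FLC2 was lost without either haploid library, euploid library 2 or A3 library 1 (adjusted p from 0.0561 to 0.0920, edgeR).

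ERV46, a protein of vesicles between the endoplasmic reticulum and the Golgi, changed by 0.23 ± 0.02, 0.28 ± 0.02 and 0.19 ± 0.02 and was the member with the smallest errors. DRS2, a phospholipid flippase of the late Golgi, was higher in A1 by 0.14 ± 0.06 and in A2 by 0.36 ± 0.06, and its A3 value was 0.00 ± 0.06. The endosomal SNARE gene SYN8 was higher in A2 by 0.14 ± 0.04 and lower in A3 (-0.30 ± 0.04). CNE1, the yeast calnexin, and SPO7, a subunit of a lipin phosphatase, were called in A2 alone among the a-selection populations, by 0.16 ± 0.06 and 0.14 ± 0.06. Neither gene was called between A2 and A1 (0.09 ± 0.06 and 0.01 ± 0.06). SPO7 changed by 0.14 ± 0.06 in A1 too, with adjusted p = 0.0594 there and 0.0491 in A2 (edgeR). Of the 7 listed chromosome I genes outside the rule, 5 were higher and 2 lower in A2.

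The members outside these lists were less uniform. GCV3, the H protein of the mitochondrial glycine cleavage system, was the 1 gene that stood higher in A3 than in A2, by 0.21 ± 0.05. It was at 111, 120 and 104 CPM in the euploid a-selection libraries, 120, 119 and 124 in A1, 157, 154 and 151 in A2 and 178, 180 and 175 in A3. The A1 libraries overlapped with the euploid ones, and A2 and A3 each stood apart. The changes of GCV3 were 0.11 ± 0.05 (adjusted p = 0.0319, edgeR), 0.46 ± 0.05 and 0.67 ± 0.05, and the A1 call was lost without euploid library 1 or 3 or A1 library 1 or 3 (adjusted p from 0.0501 to 0.232). FUN26, a nucleoside transporter of the vacuole, was within 0.04 of the control in A1 and A2 and lower in A3 (-0.27 ± 0.03).

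RFA1, the large subunit of the single-strand DNA binding protein RPA, was higher by 0.32 ± 0.04, 0.42 ± 0.04 and 0.13 ± 0.04 in A1, A2 and A3. SAW1, which recruits a nuclease in single-strand annealing, was higher in A1 by 0.13 ± 0.05 and lower in A3 (-0.43 ± 0.06). None of the 3 mitochondrial members was higher in A2. BOL1 and BOL3, both linked to iron-sulfur cluster delivery in mitochondria, had A2 changes of -0.08 ± 0.05 and -0.00 ± 0.06, and both were lower in A3 (-0.28 ± 0.05 and -0.17 ± 0.06). BOL3 was the other member lower in A1 (-0.14 ± 0.06), a call that was lost without euploid library 2, A1 library 1 or A1 library 3 (adjusted p from 0.0773 to 0.172, edgeR). MDM10, a subunit of the tether between the endoplasmic reticulum and mitochondria, was higher in A1 by 0.16 ± 0.06 and lower in A3 (-0.42 ± 0.06).

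KTD1 and DFP2 lie next to each other at the outer end of the set on the right arm and belong to a repeated membrane protein family. KTD1, known for protection against a killer toxin, was at 23.6, 25.1 and 25.1 CPM in the euploid a-selection libraries, 39.4, 36.8 and 36.8 in A1, 29.1, 30.7 and 28.4 in A2 and 21.9, 21.4 and 20.7 in A3. The 4 groups did not overlap. It changed by 0.62 ± 0.05 in A1 and 0.26 ± 0.05 in A2, lower in A2 than in A1 (-0.36 ± 0.05), and by -0.20 ± 0.05 in A3. DFP2, at a mean of 7.78 CPM near the lower limit of the rule, changed by 0.80 ± 0.14 in A1 and -0.84 ± 0.15 in A3, and its A2 value of 0.28 ± 0.14 was not called (adjusted p = 0.0829, edgeR). YAL037W, an uncharacterised gene at 7.74 CPM, was higher in A1 by 0.30 ± 0.12 and not called in A2 or A3.

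SSA1, a cytosolic Hsp70 chaperone, was the most abundant member per kb of coding length and the one with the widest spread. It was at 3532, 3393 and 1682 CPM in the euploid a-selection libraries, 2241, 4565 and 2617 in A1, 4986, 5028 and 3183 in A2 and 3314, 3646 and 4225 in A3. The groups overlapped, and with a standard error of 0.33 or 0.34 none of its 5 changes was called. Reads of SSA1 are also hard to assign, because a sequence on chromosome XII in the gene SSA2 is 96.4% identical over 1931 bases, and the sources used here do not give how shared reads were counted. SSA1 was the sole member with such a copy at 90% identity or more over at least 100 bases. In addition, 8 members, SSA1 among them, overlap other annotated genes, and the overlapped genes that have counts had means of at most 2.36 CPM.

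**Figure D3:**
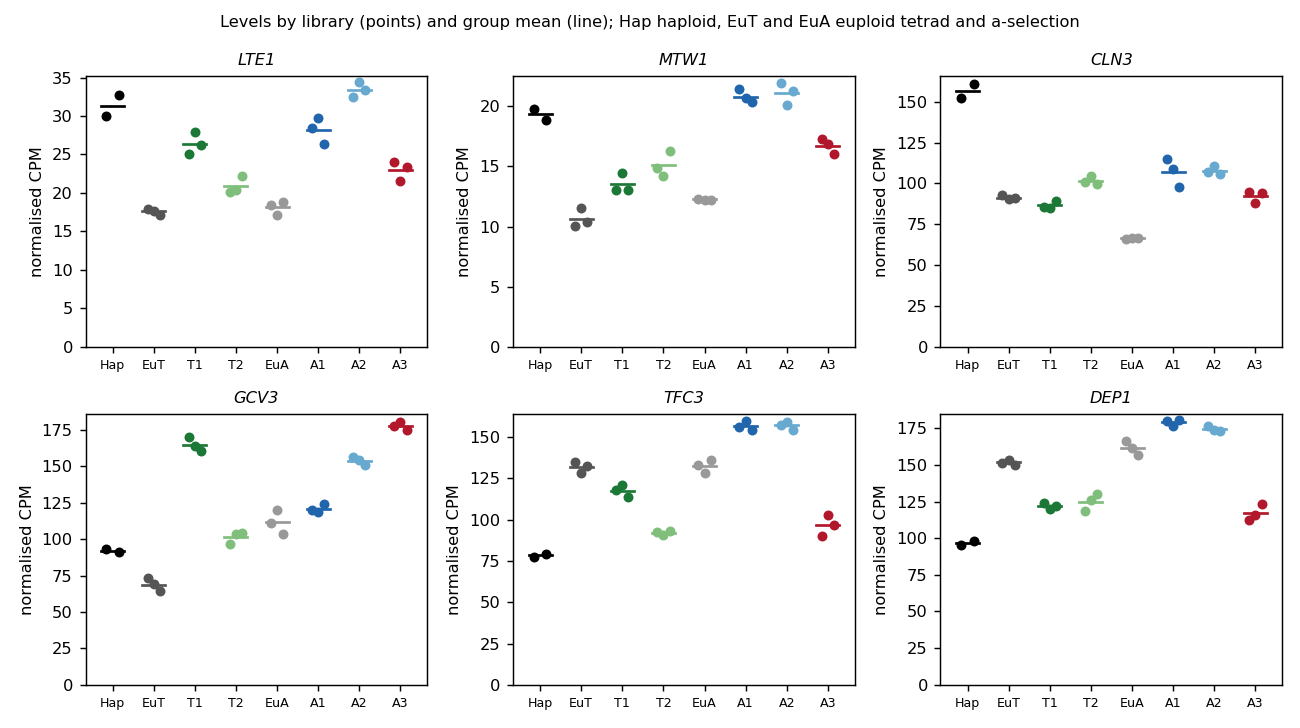
Normalised CPM of 6 of the genes in every library, with 1 point for each library and a line at the group mean. LTE1, MTW1 and CLN3 stand above the euploid a-selection libraries in A1, A2 and A3, GCV3 stands highest in A3 at 175 to 180 CPM, and TFC3 and DEP1 stand above the euploid libraries in A1 and A2 and below them in A3.

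In the tetrad route the members were divided. T1 had 9 genes higher and 16 lower, where 38.2% of all tested genes were higher and 43.0% lower, and T2 had 12 higher and 15 lower, where 40.5% and 44.4% were. The members' median was -0.10 in T1 and -0.05 in T2, and the relative shifts were -0.09 and -0.05. The 3 T1 libraries had relative shifts of -0.121, -0.093 and -0.053 and the T2 libraries -0.078, -0.087 and -0.036, all below the euploid tetrad libraries, which stood at 0.021, 0.007 and -0.021. Here too the euploid libraries were set against their own mean, which the T1 and T2 libraries share. The SD over the 3 libraries was 0.0345 in T1 and 0.0273 in T2. These comparisons share the euploid tetrad libraries with the rule that chose the members, so they are given as a description. When the rule was applied with euploid a-selection in place of euploid tetrad libraries, 34 genes met it, 31 of them in common. Their relative shifts were -0.0848 for T1 and -0.0797 for T2. In A3 that set had 13 genes higher and 14 lower.

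The split between higher and lower in T1 and T2 depended on the scaling. With library totals alone, T1 had 23 members higher and 8 lower and T2 had 24 higher and 8 lower, while the median of all tested genes moved up by 0.27 in T1, 0.39 in T2 and 0.12 in A2. The members' own median was then 0.17 in T1 and 0.34 in T2. With upper-quartile factors the T2 median of the members was 0.04. The relative shifts, which take the movement of the other genes away, were -0.0854 and -0.0487 with library totals. Alpha-specific mating genes also separated the route, since MF(ALPHA)1 was at 399 CPM in T1, 323 CPM in T2 and 2216 CPM in their euploid control, beside 1.65 CPM or less elsewhere. Whether the mix of mating types had a part in the members' values was not tested.

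GCV3, YAL037W and the outer genes of the right arm had the 4 largest changes in T1, whereas in T2 several members, BOL1 among them, changed by more than GCV3. GCV3 was at 73.0, 69.2 and 64.1 CPM in the euploid tetrad libraries, 170, 164 and 160 in T1 and 96.8, 104 and 104 in T2. The 3 groups did not overlap, with changes of 1.26 ± 0.05 in T1 and 0.56 ± 0.05 in T2 and a difference of -0.70 ± 0.05 between T2 and T1. Of all tested genes, 38.3% in T1 and 40.0% in T2 lay wholly above the euploid tetrad libraries, and 43.4% and 44.4% wholly below. KTD1 was at 40.2, 35.5 and 38.8 CPM in the euploid tetrad libraries, 20.8, 21.7 and 21.3 in T1 and 19.3, 18.9 and 18.6 in T2, which made changes of -0.84 ± 0.05 and -1.01 ± 0.05. DFP2 changed by -1.06 ± 0.14 and -1.27 ± 0.15, and YAL037W by -1.49 ± 0.12 and -1.24 ± 0.12. These 3 genes were higher in A1, so their direction was opposite in the first a-selection population.

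Several members that were higher in the tetrad aneuploids were among the genes higher in A1 and A2. LTE1 was at 17.9, 17.7 and 17.2 CPM in the euploid tetrad libraries, 25.02, 27.88 and 26.27 in T1 and 20.1, 20.4 and 22.3 in T2, with changes of 0.58 ± 0.06 and 0.25 ± 0.07. FLC2 changed by 0.34 ± 0.04 and 0.67 ± 0.04, NUP60 by 0.16 ± 0.04 and 0.46 ± 0.04, and RFA1 by 0.36 ± 0.04 in both. KIN3 was higher by 0.41 ± 0.03 and 0.22 ± 0.03. Among the lower genes BOL1 changed by -0.61 ± 0.05 and -0.86 ± 0.06, MDM10 by -0.43 ± 0.06 and -0.69 ± 0.06, SYN8 by -0.49 ± 0.04 and -0.51 ± 0.04 and TFC3 by -0.17 ± 0.04 and -0.52 ± 0.04. SAW1 changed by -0.43 ± 0.06 and -0.56 ± 0.06, and PRP45 by -0.46 ± 0.04 and -0.35 ± 0.04.

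Between T2 and T1, 11 members were higher and 11 lower, near the 35.9% and 33.2% of all tested genes. SWC3 was higher in T2 by 0.40 ± 0.05, FLC2 by 0.32 ± 0.04 and NUP60 by 0.30 ± 0.03. SSA1 had the largest negative value, -0.80 ± 0.34, from 2831, 5183 and 5578 CPM in T1 and 2940, 1524 and 3339 in T2. Its call (adjusted p = 0.0389, edgeR) rested on single libraries, with adjusted p = 0.110 without T1 library 2, 0.146 without T1 library 3 and 0.195 without T2 library 2.

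In all, 7 of the genes were called higher in all 5 aneuploid populations, namely FLC2, GCV3, MTW1, MYO4, LTE1, NUP60 and RFA1. The T1 call of MYO4 among them was lost without euploid tetrad library 1 or 2 or T1 library 3 (adjusted p from 0.0740 to 0.225, edgeR). As given above, the A3 call of FLC2 and the A1 call of GCV3 were also lost with some single libraries left out. With ERV46, CLN3 and BUD14 the genes higher in all of A1, A2 and A3 numbered 10. No member was lower in all 5 populations. How many of all tested genes were called the same way across populations was not counted, so these counts are descriptions of the members. The comparisons of one route share their euploid libraries, so the calls are not independent of each other. By the rule's ratio, each of the 7 was lower in the euploid tetrad libraries than in the haploid, from -0.23 (GCV3) to -0.98 (NUP60). Those euploid libraries are also the control of T1 and T2.

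**Figure D4:**
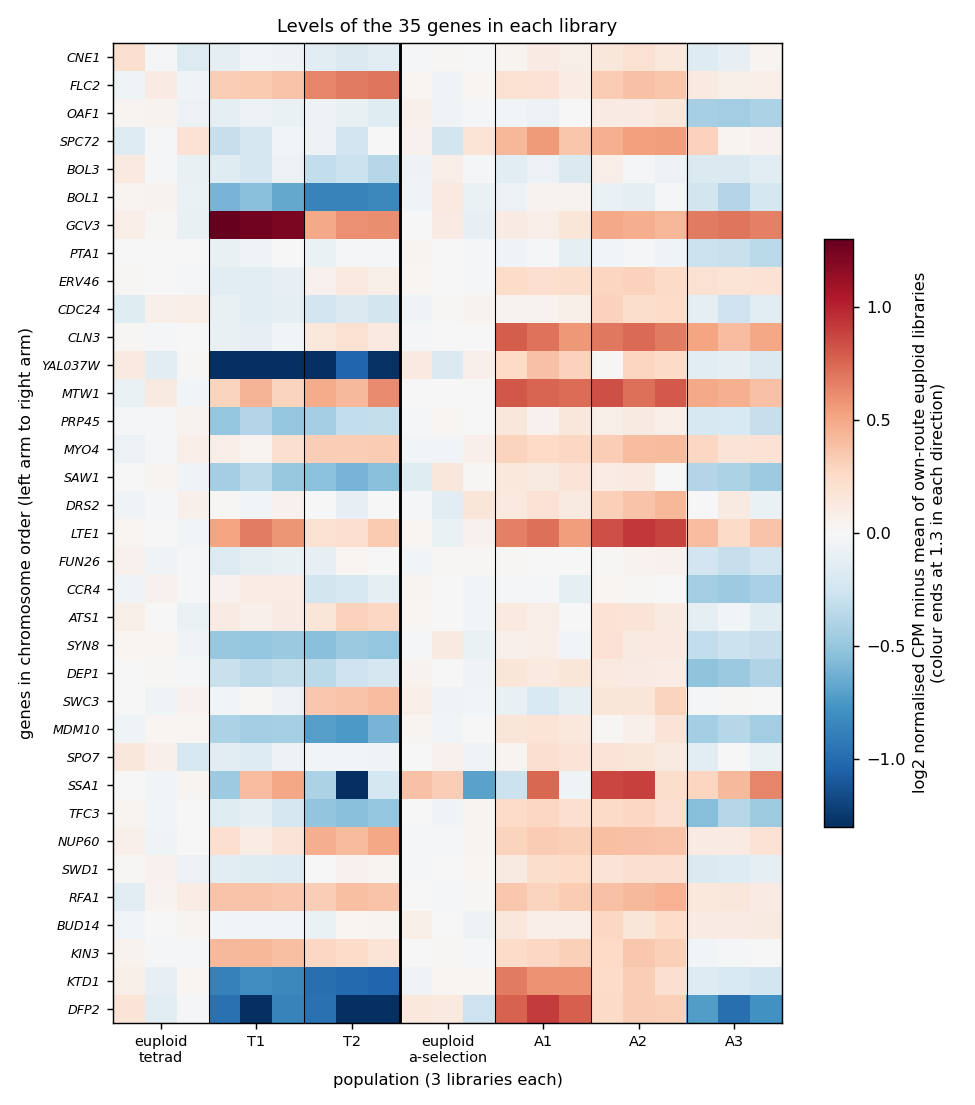
Log2 normalised CPM of the 35 genes in each of the 21 libraries of the populations, minus the mean of the 3 euploid libraries of the same route. Rows run from the left to the right end of the chromosome, columns are single libraries in groups of 3, and the thick line parts the routes. The A2 columns are red in most rows, the A3 columns turn blue in rows such as TFC3 and DEP1, and SSA1 varies between replicates.

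Across the 23 libraries, the members whose log2 levels were most like those of MTW1 were RFA1 with a Pearson correlation of 0.89, LTE1 with 0.85 and FLC2 with 0.79. These are descriptions over libraries that share groups. MTW1, called higher in all 5 populations, was picked from these same data, and in each population another member had a smaller adjusted p. MTW1 and RFA1 were also the members with the MCB hexamer ACGCGT, the element bound by the MBF factor of G1, in the window from 250 bases before to 50 bases after the start codon. Their sites are printed because the same letters occur in the promoters of MTW1 and of the member most like it. Correlations were taken with MTW1 only, so other pairs of members may be more alike. Each is shown on the strand of its gene with the hexamer in capitals, at chrI:79602-79627 (plus strand) for MTW1 and at chrI:158769-158794 and chrI:158739-158764 (minus strand) for RFA1 in R64 from RefSeq.

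MTW1: tttttatagtACGCGTaaacaaaaaa
RFA1, outer site: gaaaaatgtcACGCGTaaaaattaga
RFA1, inner site: gcgacaaaagACGCGTgaactaacat

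The sites begin 106 bases before the start codon in MTW1 and 165 and 135 bases before it in RFA1. Searched on both strands, ACGCGT was in 2 of 35 member windows and in 3.07% of 6001 windows of the genome. The stress element AGGGG was in 7 member windows (21.6% of all windows), the PAC letters GATGAG in 6 (20.4%), the Gcn4 letters TGACTC in 3 (7.98%), the Cbf1 letters CACGTG in 1 (2.92%) and TATAAA in 13 (45.2%). The members with TGACTC were BOL1, GCV3 and DEP1. In A3 against A2, GCV3 was higher (0.21 ± 0.05), while BOL1 (-0.21 ± 0.05) and DEP1 (-0.58 ± 0.03) were lower. GCV3 held the letters at 2 places, printed here on the strand of the gene with the reverse complement in capitals. They lie at chrI:58560-58585 and chrI:58544-58569 on the minus strand.

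GCV3, outer site: cttccgtaagGAGTCAttcagcggcg
GCV3, inner site: ttcagcggcgGAGTCActttcgctaa

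A match of letters is not a measured binding site, and these shares are descriptions.

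The 35 genes were also followed along the chromosome in 4 stretches, the first 50000 bases of the left arm, the second 50000 bases, the rest up to the centromere and the right arm. In A1 the right arm had the highest median, 0.31, and all 7 of its members were higher, beside medians of 0.11 over 2 genes, 0.13 over 15 and 0.13 over 11 on the left arm. In A2 the 4 medians were 0.26, 0.26, 0.14 and 0.28, and 25 genes over all stretches were higher. In A3 they were 0.01, -0.16, -0.27 and -0.02, of which the first fell below 0 with RLE or upper-quartile factors and DESeq2, and the last was 0.04 with library totals. The contrast of A3 with A2 was negative in every stretch, at -0.25, -0.33, -0.44 and -0.33, with 2 of 2, 14 of 15, 10 of 11 and 7 of 7 genes lower.

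In T1 the stretch medians were 0.13, -0.13, -0.13 and -0.03, and in T2 0.25, -0.11, -0.19 and 0.03. With library totals alone they were all positive, at 0.41, 0.15, 0.14 and 0.24 in T1 and 0.64, 0.27, 0.19 and 0.41 in T2, and the right arm of T1 was also above 0 with RLE or upper-quartile factors, DESeq2 and only the groups compared. Genes with opposite calls lay side by side, such as GCV3 with 1.26 ± 0.05 in T1 and its neighbour BOL1 with -0.61 ± 0.05, whose coding regions are separated by less than the length of either. On the right arm of T2, NUP60 was higher by 0.46 ± 0.04 and KTD1 lower (-1.01 ± 0.05).

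**Figure D5:**
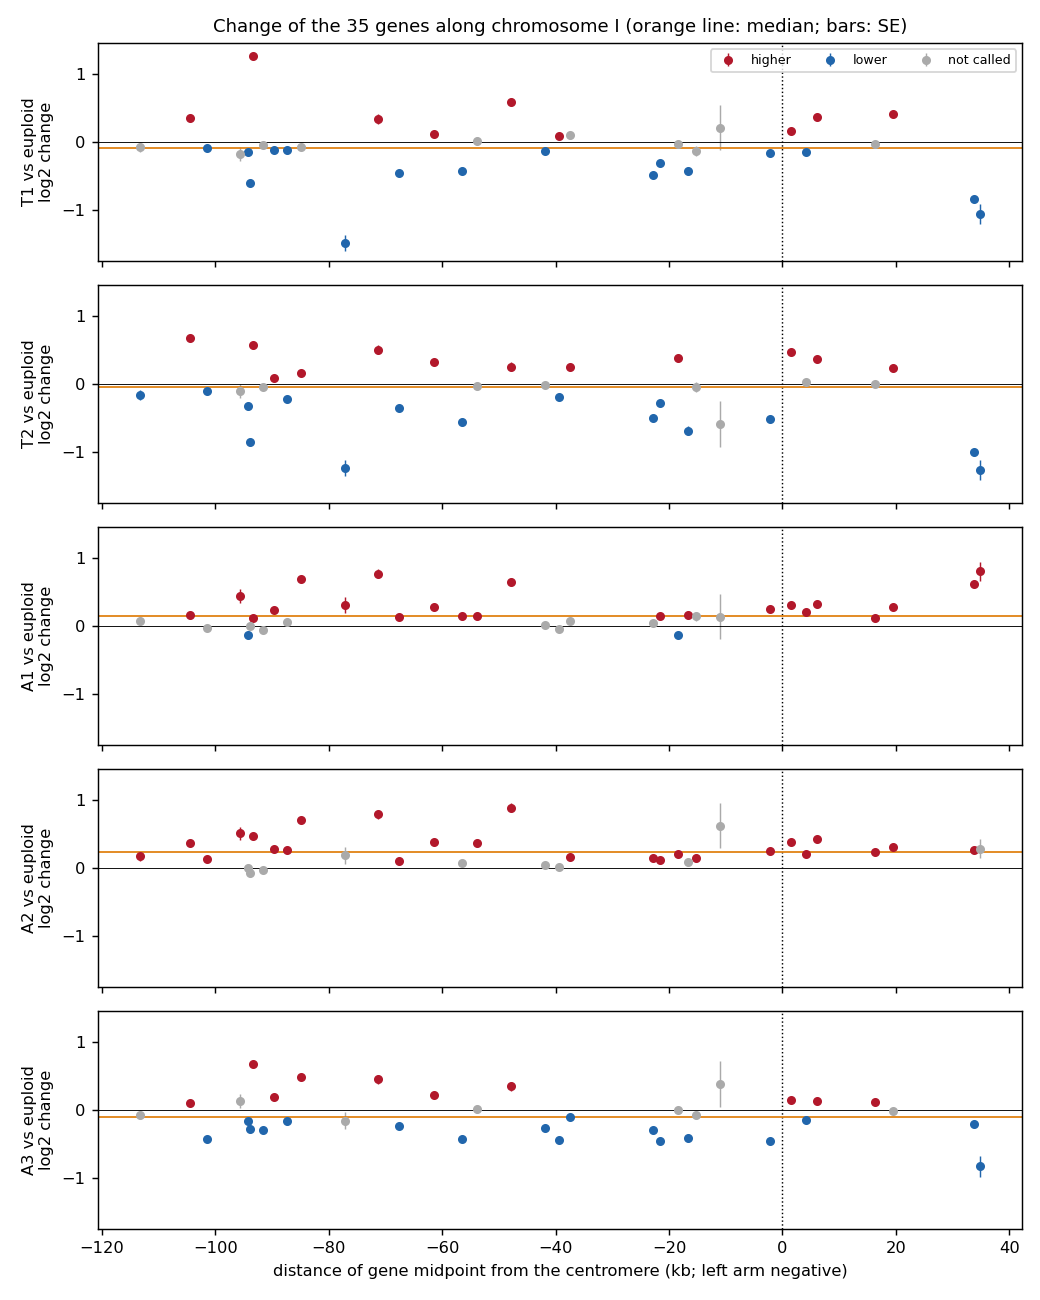
Log2 change of each of the 35 genes against the distance of its midpoint from the centromere in kb, in the 5 aneuploid populations against the own-route euploid population. Red points were called higher, blue lower and grey not called (edgeR), bars are standard errors, the orange line is the median of the 35 genes and the dotted line is the centromere. The A1 and A2 points lie mostly above 0 over the whole span, with medians of 0.14 and 0.22, and the T1, T2 and A3 points lie on both sides.

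The change of a member also went with the side of the rule's ratio on which it lay. In A3 the 20 members with the higher level in the haploid had a median of 0.05, with 9 higher and 6 lower, and the 15 with the higher level in the euploid tetrad population had -0.30, with 1 higher and 11 lower. In A2 the same medians were 0.32, with 17 higher, and 0.14, with 8 higher, and none was lower in either. The genes elsewhere that met the rule were split the same way, with medians of 0.18 and -0.12 in A3 and 0.06 and -0.08 in A2. Taking each side against its own counterpart, the members were above by 0.26 and 0.22 in A2 and below by -0.13 and -0.18 in A3. In A1 they were above by 0.13 and 0.22. In T1 they were below by -0.16 and -0.17, and in T2 by -0.12 and -0.32. The relative shifts there were -0.09 for T1 and -0.05 for T2. The haploid side held 20 of the 35 members but 1069 of the 2391 genes elsewhere. The split uses the ratio that chose the genes. Over the members, the Pearson correlation between the rule's ratio and the change was -0.40 in T1, -0.62 in T2, -0.32 in A1, -0.48 in A2 and -0.57 in A3. For the same-rule genes elsewhere it was -0.38, -0.51, -0.19, -0.30 and -0.50. These correlations are across genes, which are not independent replicates, and in T1 and T2 the euploid tetrad libraries enter both measures.

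The authors' deposited table holds 1 comparison whose groups its header does not name. In the authors' deposited table none of the 35 genes had an adjusted p under 0.05, where 3.51% of 6316 genes did, and the smallest adjusted p of a member was 0.237. Their unadjusted p was under 0.05 in 8 genes, 17 of the 35 log2 fold changes were positive, and the values in the authors' deposited table ran from -0.64 to 0.65.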

How the data were processed

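RNA-seq of 23 libraries was used. The authors deposited raw counts per gene and library, with totals of 12719710 to 19327344. A second deposited table gives, per the file headers, a mean normalised count (signal), a log2 fold change with its error, a test score and p-values for 1 comparison. The submitters' processing notes name build R64 and, with no roles, HISAT2 2.0.5 and HTSeq 0.6.1p1, beside DESeq2 1.14.1, bcl2fastq 2.17.1.14 and FastQC. Strand setting and the handling of shared reads are not given in the sources used here.

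Counts were fitted with edgeR 4.0.16 (TMM, filterByExpr, 8 group coefficients, quasi-likelihood test, Benjamini-Hochberg adjustment over 6111 genes) in R 4.3.3, and checked with DESeq2 1.42.0 and the alternatives listed at the end. The fit was tested on simulated data. Library shifts used log2 CPM with a prior count of 2. Gene starts of all 35 members matched RefSeq R64. Near-identical copies were searched with blastn 2.17.0. Named genes were those with the largest called changes in each population (mean of 20 CPM or more), those called the same way across populations, those with the largest differences between populations, members of each role list and the genes nearest the rule's limit. YAL037W and DFP2, and others described for completeness of their list, fall outside it. The members and lists were chosen with earlier results of these data known. Library numbers did not pair samples: 18 correlations of same-numbered deviations lay between -0.147 and 0.169. No pair of libraries agreed within counting noise.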

Additional observations from a re-analysis of the deposited data

Results flagged for a closer look

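Between T2 and T1, 22 of the 35 genes differed by the edgeR test of that contrast, 11 in each direction, where 35.9% of all tested genes were higher and 33.2% lower. Among A1, A2 and A3, 34 of the 35 differed by the edgeR F test, beside 73.8% of all tested genes, and 33 of them were lower in A3 than in A2. Both are listed because the test of the difference between populations of 1 route passed its threshold. The count between T2 and T1 was no larger than the share over all tested genes. Gains or losses of single chromosomes in these populations were not measured here, and their part in the differences was not tested.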

How the results depend on the processing

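The changes followed under the alternatives were the largest called ones of each population and those called the same way across populations. None of these turned sign where it was called. The other called changes were not followed. With library totals the median of all tested genes moved up by 0.27 in T1 and 0.39 in T2. These moves are larger than called changes such as FUN26 in T1 (-0.13) and CCR4 in T2 (-0.19). The members' own median turned sign with library totals, from -0.10 to 0.17 in T1 and from -0.05 to 0.34 in T2, and was 0.04 in T2 with upper-quartile factors. Stretch medians turned too: those of T1 and T2 under library totals, and, near 0, those of the T1 right arm and of the outer left arm and right arm in A3. The relative shifts kept their sign in all 5 populations, and the 33 genes lower in A3 than in A2 stayed between 31 and 33 when 1 library was left out. The 2 genes lower in A1 were 0 with upper-quartile factors, library totals, DESeq2 or an adjusted p under 0.01, 1 with TMM factors from the same-rule genes elsewhere, and 1 to 2 with a library left out. With library totals T1 had 23 higher and 8 lower, and T2 24 and 8. A log2 limit of 0.5 left 22 members: 5 were higher in T1, 7 in T2, 11 in A1, 16 in A2 and 4 in A3, 11 were lower in A3, 12 differed between T2 and T1, 21 were lower in A3 than in A2 and 22 differed among A1, A2 and A3. The relative shifts were then -0.0867 in T2, 0.214 in A2 and -0.144 in A3. A mean of 20 CPM (32 members) gave 0.230 in A2 and -0.102 in A3, and the rule with the euploid a-selection population gave -0.0797 in T2 and 0.129 in A1. Without the repeated families A2 was 0.217 and A3 -0.0919, and without SSA1 they were 0.230 and -0.144. The 31 members that met both euploid rules gave 0.140 in A1 and 0.228 in A2. With a library left out the shift ran from -0.0957 to -0.0540 in T1, 0.162 to 0.194 in A1, 0.226 to 0.263 in A2 and -0.147 to -0.108 in A3. Calls of FLC2 in A3 and of BOL3 and SWC3 in A1 were also lost under some scalings or DESeq2, with adjusted p from 0.0513 to 0.244. The cause of these movements was not tested, apart from the smaller sets. The rules without SSA1 and with both euploid populations, and the contrast of A3 with A2, were chosen after seeing the data.

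With the replicate number as a block (replicate block), 24 members were higher in A2 in place of 25 and 21 differed between T2 and T1 in place of 22, the lost gene there being SSA1 (adjusted p = 0.0553, edgeR). The library numbers share only a label. Depth limits YAL037W and DFP2, whose standard errors were 0.12 to 0.15.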
